A study of Mus musculus with 69 samples.

Results

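The genes described here are the nuclear-encoded subunits of the mitochondrial respiratory chain and of ATP synthase, followed in microdissected kidney tubules of mice after the removal of 1 kidney. Members were taken by symbol from 4 tables of TPM, a length-scaled measure of transcript abundance, 1 for each tubule segment and time, and had to reach a mean of 1 TPM over the animals of at least 1 table. Of 52404 genes listed in all 4 tables, 81 were members. Complex I (NADH dehydrogenase) held 35, complex II (succinate dehydrogenase) 4, complex III (the cytochrome bc complex) 9, complex IV (cytochrome c oxidase) 16 and complex V (ATP synthase) 17. In all, 105 rows matched the names, of which 15 were left out by name, mostly pseudogenes, and 9 stayed under 1 TPM in every table: Ndufa11b, Ndufb4c, Ndufs6b, Cox4i2, Cox7b2, Cox8b, Cox8c, Ndufa4l2 and a second row named Atp5o. Those left out by name include Ndufb1 of complex I, at means of 182 to 253 TPM, because it is also listed as Ndufb1-ps. Cox6c2 was the member closest above the minimum, and Ndufs6b, at 0.79 TPM in 1 table, was the gene closest below it. The minimum was passed by 80 members in each of the 4 tables, and Cox6a2 passed it in proximal tubule only. Ndufa4, named for complex I, is counted here with complex IV, where it is now placed.

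Complexes I to IV pass electrons from NADH and succinate to oxygen, and complexes I, III and IV pump protons across the inner mitochondrial membrane. Complex V lets the protons flow back and makes ATP. A small set of subunits is encoded by the mitochondrial genome, and all the others, including the whole of complex II, are nuclear genes whose proteins are made in the cytosol and imported. Proximal tubule cells are rich in mitochondria and depend on oxidative ATP production to drive the reabsorption of sodium and other solutes, whereas cells of the collecting duct carry a smaller transport load and can also use glycolysis.

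All animals were wild-type male C57BL/6 mice from Taconic, 7 weeks old, which underwent sham surgery or had 1 kidney excised (unilateral nephrectomy, UNx). Tubules were dissected 24 h or 72 h later, from cortical collecting duct (CCD) or from proximal tubule, segment S1 (PT-S1), and polyA RNA was made into cDNA with a low-input SMART-Seq kit. PT-S1 at 24 h gave 8 libraries from 3 sham animals and 9 from 4 UNx animals, and PT-S1 at 72 h gave 12 from 5 sham animals and 12 from 5 UNx animals. CCD at 24 h gave 8 libraries from 4 sham animals and 7 from 3 UNx animals, and CCD at 72 h gave 7 from 4 sham animals and 6 from 4 UNx animals. The number after the group name in the labels was read as the animal and was the unit of replication, so the libraries of 1 animal were averaged on the log2(TPM + 1) scale. The labels do not say whether PT-S1 and CCD came from the same animals, and the p-values measure the spread between these animals only.

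TPM values carry no sequencing depth, so the depth was unknown. Genes at 1 TPM or more numbered 9247 to 14875 per library. Both segments carried their own markers: the summed level of markers of proximal tubule S1 and S2 was 5312 to 15262 TPM in animals of the PT-S1 groups and 9.98 to 56.4 TPM in those of the CCD groups, and the sum of principal-cell markers was 18746 to 61415 TPM in CCD and 26.2 to 109 TPM in PT-S1. For 5 of 69 libraries the median of the correlations with all others in the same table did not reach 0.92: 2 in PT-S1 at 24 h (sham animals 1 and 3), 2 in PT-S1 at 72 h (UNx animals 1 and 2) and 1 in CCD at 72 h (sham animal 1). Each of these animals had other libraries. The UNx changes, their differences, the segment counts and the shares of TPM were therefore also computed without the 5 libraries. These are called the low-correlation libraries below. Isoform shares, summed marker levels, correlations of sham levels and medians by promoter motif or transcript length use all libraries only. All samples are bulk tubules, in which fewer cells of a type and less RNA per cell cannot be told apart.

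Together the 81 genes made up 8.62% ± 1.17 of all TPM in PT-S1 of sham animals at 24 h (SD, n = 3) and 9.08% ± 0.59 at 72 h (n = 5). In CCD of sham animals the share was 7.56% ± 0.31 at 24 h (n = 4) and 8.94% ± 1.27 at 72 h (n = 4). The low-correlation libraries lay far from the others in this share. In PT-S1 at 72 h the low-correlation library of UNx animal 1 gave 29.6% of its TPM to the 81 genes and that of UNx animal 2 gave 25.7%, with 9247 and 9632 genes at 1 TPM or more. The low-correlation library of sham animal 1 in CCD at 72 h gave 12.8%, and those of PT-S1 at 24 h gave 3.88% (sham animal 1) and 13.6% (sham animal 3). The plot of share against correlation sets these 5 libraries beside the other 64.

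**Figure D1:**
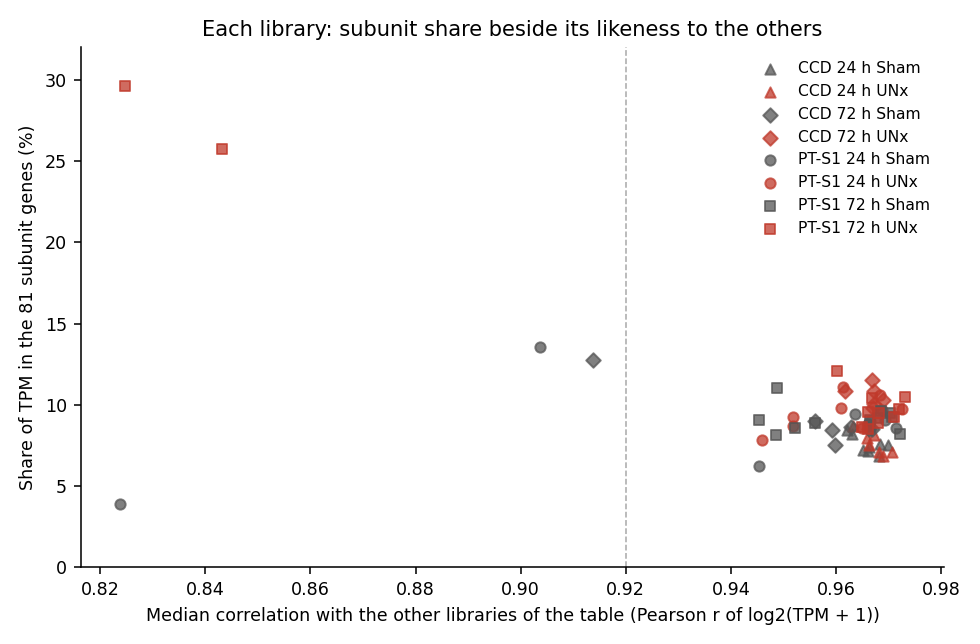
Share of a library's TPM in the 81 genes (y axis, %) against its median correlation to the others of its table (x axis) for each of 69 libraries. Colour gives the group (sham or UNx) and marker shape gives the segment and time. The dashed line marks a correlation of 0.92. The 2 libraries of PT-S1 at 72 h to the left of the line, both from UNx animals, hold 25.7% and 29.6% and lie above every other library.

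The level of the members in sham animals spread widely and kept nearly the same order in both segments. The median member was at 744 TPM in PT-S1 at 24 h, 811 TPM in PT-S1 at 72 h, 659 TPM in CCD at 24 h and 778 TPM in CCD at 72 h. Between 26 and 35 members reached 1000 TPM in a table, and 6 or 7 were under 100 TPM. Atp5b, the catalytic beta subunit of ATP synthase, was the most abundant member in every table, at 5517 ± 405 TPM in PT-S1 at 24 h (SD, n = 3), 5448 ± 324 at 72 h (n = 5), 6184 ± 376 in CCD at 24 h (n = 4) and 6712 ± 1034 at 72 h (n = 4). Its levels in the 2 segments overlapped at both times. Across 80 members the sham levels of PT-S1 and CCD, as log2(TPM + 1), correlated with Pearson's r of 0.963 at 24 h and 0.976 at 72 h, a description over genes that share their libraries.

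Within complex I the accessory subunit Ndufa1 had the highest level in every table, and Ndufb4, another accessory subunit, had the lowest, at 220 TPM in PT-S1 at 24 h, 158 TPM at 72 h, 91.0 TPM in CCD at 24 h and 85.4 TPM at 72 h. Of the 4 succinate dehydrogenase genes, the iron-sulfur subunit Sdhb led in PT-S1 at 939 and 1034 TPM, and the membrane anchor Sdhd led in CCD at 890 and 1041 TPM, at 24 h and 72 h in each case. Sdhc, the other membrane anchor, was the lowest of complex II everywhere, at 376 and 334 TPM in PT-S1 and 197 and 184 TPM in CCD. In complex III the small subunit Uqcrq led in PT-S1 (2466 and 3680 TPM) and the small subunit Uqcr11 in CCD (2507 and 2937 TPM), while the core protein Uqcrc2 was lowest at 331 to 395 TPM. In complex IV Cox6a1 led in PT-S1 (3371 and 3313 TPM) and Cox8a in CCD (2751 and 3472 TPM). Second to Atp5b in complex V was Atp5g3, one of a group of genes for the c-ring subunit, at 1811 to 2638 TPM. TPM is scaled by transcript length, so these levels can be set beside each other, within the limits of the length the authors' software assigned.

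**Figure D2:**
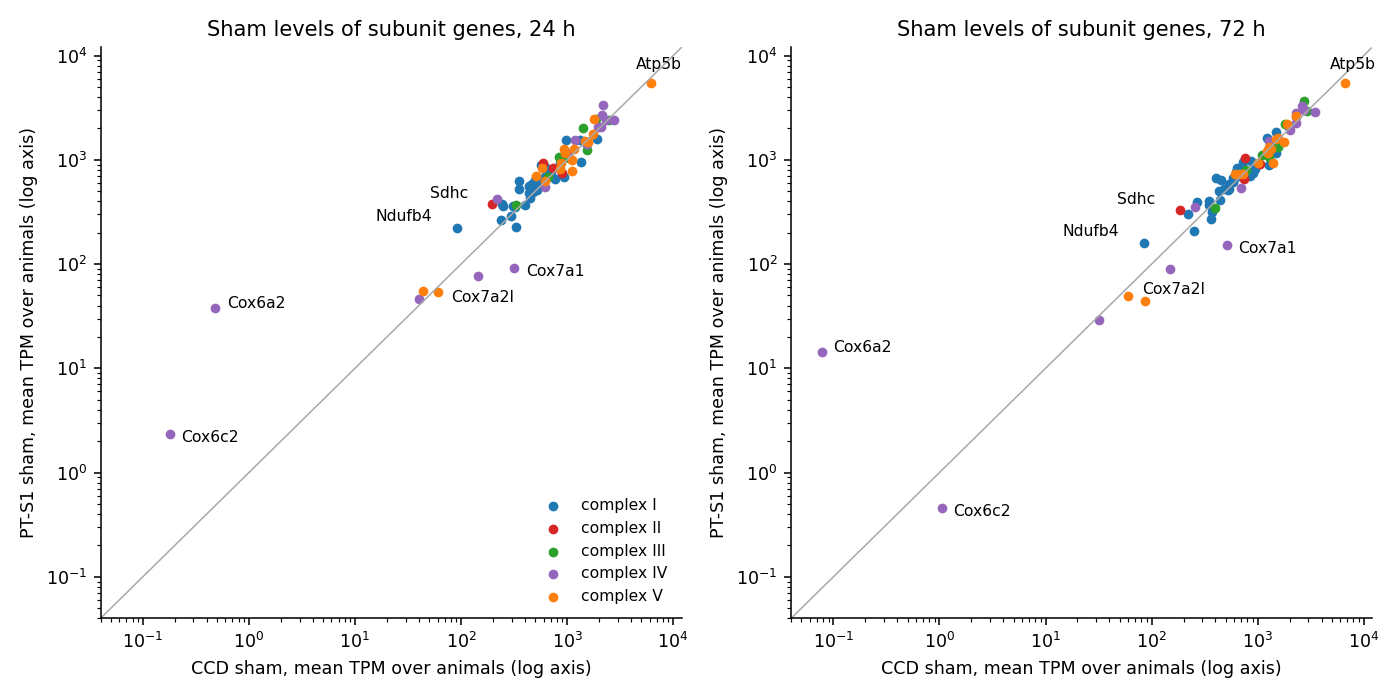
Mean TPM of each member in PT-S1 (y axis, log scale) against CCD (x axis, log scale) in sham animals at 24 h (left) and 72 h (right), coloured by complex; the grey line is equality and means under 0.05 TPM are drawn at 0.05. Most of the 81 genes lie near the line; Cox6a2 lies far above it and Cox7a1 and Cox7a2l below it.

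Set against all genes, the members were high in PT-S1. The median difference between PT-S1 and CCD of sham animals was 0.13 on the log2 scale at 24 h and 0.03 at 72 h for 80 members, whereas it was -0.73 and -0.71 for all genes at 1 TPM or more in both tables. The tables were normalized separately, so the segments were compared by whether the animals' values overlapped, with no test. Sham libraries had 11199 to 12494 genes at 1 TPM or more in PT-S1 and 12681 to 14203 in CCD. The part of this in the contrast with all genes was not tested. At 24 h PT-S1 values lay above all CCD values for 19 of 80 members (13.1% of all genes) and below them for 8 (61.3%), and at 72 h for 9 (10.3%) and 7 (55.1%). PT-S1 values lay above all CCD values at both times for 9 of 80 members, close to the 9.36% of all genes. CCD values lay above all PT-S1 values for 4, against 50.8% of all genes. The 9 were 7 accessory subunits of complex I (Ndufa13, Ndufa2, Ndufa6, Ndufb3, Ndufb4, Ndufc2 and Ndufv3) with Sdhb and Sdhc of complex II. The 4 were Cox7a1, Cox7a2l, Atp5h (subunit d of the ATP synthase peripheral stalk) and Ndufs5, an accessory subunit of complex I. Without the low-correlation libraries these counts were 17 of 80 (9.67% of all genes) and 5 of 80 (55.9% of all genes).

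Among the 9 members above CCD at both times the largest difference was that of Ndufb4, by 1.25 on the log2 scale at 24 h and 0.90 at 72 h. Sdhc differed by 0.92 and 0.86 and Ndufv3, an accessory subunit of the NADH-binding module, by 0.79 and 0.71. Sdhc was at 340, 441 and 346 TPM in PT-S1 of the 3 sham animals at 24 h and at 222, 188, 186 and 192 TPM in CCD of the 4 sham animals. At 72 h Sdhc was at 326, 294, 323, 369 and 358 TPM in PT-S1 and at 184, 160, 177 and 213 TPM in CCD. The lowest PT-S1 animal was thus above the highest CCD animal at both times.

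Toward CCD the largest difference was that of Cox7a1, the isoform of a small cytochrome c oxidase subunit known from heart and muscle, by -1.79 at 24 h and -1.69 at 72 h. Cox7a1 was at 78.7, 103 and 93.3 TPM in PT-S1 of sham animals at 24 h and at 363, 292, 301 and 320 TPM in CCD. It made up 5.63% ± 0.63 of the summed TPM of Cox7a1 and Cox7a2 in PT-S1 at 24 h (SD, n = 3) and 9.04% ± 1.22 at 72 h (n = 5), against 21.3% ± 1.21 (n = 4) and 27.7% ± 4.71 (n = 4) in CCD. Cox7a2l, a related protein that helps join complexes III and IV into supercomplexes, differed by -0.93 and -0.71 in the same direction. It reached 76.5 and 89.9 TPM in PT-S1 and 145 ± 7.93 and 148 ± 7.47 TPM in CCD (n = 4 each). Both genes were thus higher in the collecting duct, where the ubiquitous isoform Cox7a2 remained the larger of the pair.

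The other muscle isoform, Cox6a2, showed the opposite order. Cox6a2 was at 27.7, 39.7 and 45.9 TPM in PT-S1 of sham animals at 24 h, at 14.2, 5.19, 12.3, 26.0 and 14.4 TPM at 72 h, and at no more than 0.702 TPM in any CCD animal. It made up 1.10% ± 0.05 and 0.426% ± 0.171 of the summed TPM of Cox6a1 and Cox6a2 in PT-S1 (n = 3 and n = 5). Its values varied by several fold among animals of 1 group: the 4 UNx animals of PT-S1 at 24 h were at 26.3, 38.5, 8.70 and 60.4 TPM. Of the 3 genes for the same mature c-ring subunit, Atp5g3 gave 59.3% to 66.8% of their sum in sham animals, Atp5g1 31.7% to 38.5% and Atp5g2 1.06% to 2.24%, over the 4 tables. The paralogs Cox4i2, Cox7b2, Cox8b, Cox8c and Ndufa4l2, with restricted expression in other organs, all stayed under 1 TPM.

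In CCD at 72 h after UNx nearly all members were higher than in sham animals, and 1 passed the test. Of 80 members tested 77 were higher and 3 lower, with a median change of 0.25 on the log2 scale beside 0.01 for all 13770 genes tested. The SD of the members' median between animals of a group was 0.13, and 0.26 relative to all genes. The members were read in the same animals, so the counts of members given here are not counts of independent results. The test was limma on log2(TPM + 1) of the animals with Benjamini-Hochberg adjustment over all genes, and an adjusted p under 0.05 was the threshold. Sdhc passed it, as did 0.595% of all genes. At an unadjusted p under 0.05, 33 members were higher and none lower, where 4.66% of all genes were higher and 2.82% lower. All UNx animals lay above all sham animals for 12 members (3.23% of all genes) and below them for none (1.54% of all genes): Sdhc, Cox7b, Atp5k, Cox7c, Ndufc1, Cox7a2, Ndufa3, Cox6b1, Ndufb11, Ndufv3, Cox5a and Cyc1. By complex 34 of 35 members of complex I were higher, 4 of 4 of complex II, 8 of 9 of complex III, 14 of 15 of complex IV and 17 of 17 of complex V.

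The low-correlation library of sham animal 1 changed the count. It gave 12.8% of its TPM to the 81 genes, where the other 6 sham libraries of this table gave 7.55% to 9.03%. Without it 14 of 80 members rose past the threshold (0.937% of all genes) and none fell. They were 7 accessory subunits of complex I (Ndufc1, Ndufa3, Ndufa13, Ndufb3, Ndufv3, Ndufb4 and Ndufb2), Sdhc of complex II, none of complex III, Cox7b, Cox6b1 and Cox7a2 of complex IV, and Atp5k, Atp5j2 and Atp5j of complex V. The higher members then numbered 79 of 80, the median change was 0.31 beside -0.07 for all genes, 58 were higher and none lower at an unadjusted p under 0.05 (5.53% and 8.64% of all genes), and 51 were higher and none lower without overlap (3.78% and 4.86% of all genes). Values without this library are given below where they move or bear on a call.

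**Figure D3:**
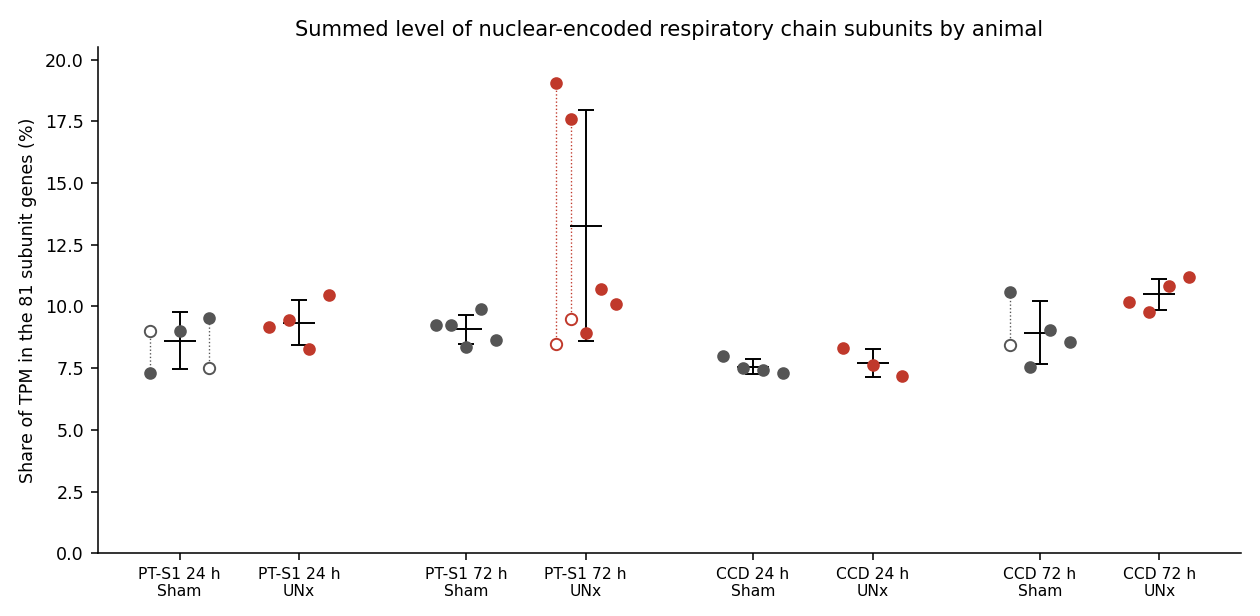
Percent of TPM in the 81 genes for each animal (points) by table and group, with the mean ± SD in black; open circles joined by dotted lines give an animal's value without its low-correlation library. The 4 UNx animals of CCD at 72 h lie between 9.79% and 11.2%; UNx animals 1 and 2 of PT-S1 at 72 h fall into the range of the sham animals once their low-correlation libraries are left out.

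The share of TPM in the 81 genes showed the same pattern in CCD at 72 h. The sham animals ranged from 7.55% to 10.6% and the UNx animals from 9.79% to 11.2%, with means of 8.94% ± 1.27 and 10.5% ± 0.63 (SD, n = 4 each), so the groups overlapped. Without the low-correlation library the sham animals ranged from 7.55% to 9.03%, with a mean of 8.39% ± 0.62, and lay below every UNx animal. At 24 h the CCD means were 7.56% ± 0.31 in sham animals (n = 4) and 7.70% ± 0.57 in UNx animals (n = 3).

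Complex II showed the clearest single change. Sdhc, which with Sdhd anchors succinate dehydrogenase in the membrane and binds its heme, was at 184, 160, 177 and 213 TPM in CCD of the sham animals at 72 h and at 310, 263, 300 and 303 TPM in UNx animals. The lowest UNx animal was above the highest sham animal. Sdhc rose by 0.68 on the log2 scale (SE 0.106, limma adjusted p 0.0221), and by 0.66 without the low-correlation library (adjusted p 0.0223). This call held without sham animal 1 or 4, and was lost when sham animal 2 or 3 or any of the 4 UNx animals was left out, with adjusted p between 0.0527 and 0.101 and a change between 0.62 and 0.73. Over all 20 alternatives the adjusted p ran from 0.00324 to 0.101.

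The other 3 genes of complex II moved less in the same samples. Sdhb, the iron-sulfur subunit, was at 894, 617, 802 and 738 TPM in sham animals and at 929, 861, 920 and 942 TPM in UNx animals, a difference of 0.27 (SE 0.116, adjusted p 0.629) that left the groups overlapping. Without its low-correlation library sham animal 1 was at 760 TPM and the difference was 0.33. Sdha, the flavoprotein, differed by 0.22 and Sdhd by 0.15, and by 0.10 and 0.17 without that library, neither past the threshold in either setting.

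Among complex I members the smallest p-values belonged to Ndufc1 and Ndufa3, small accessory subunits of the membrane arm. Ndufc1 was at 1069, 765, 806 and 852 TPM in CCD of the sham animals at 72 h, with 773 TPM for the first without its low-correlation library, and at 1093, 1134, 1347 and 1421 TPM in UNx animals. The groups did not overlap, and the difference was 0.52 with all libraries (SE 0.132, adjusted p 0.20) and 0.64 without the low one (SE 0.103, adjusted p 0.024). Ndufa3 was at 1841, 1455, 1408 and 1520 TPM in sham animals, with 1336 TPM for the first without that library, and at 1996, 1933, 2036 and 2227 TPM in UNx animals. Its difference was 0.40 (SE 0.108, adjusted p 0.238), and 0.52 without the library (adjusted p 0.0253). Both genes thus passed the threshold only when that library was left out or, by weights that limma gives to animals, counted less. Over all alternatives the adjusted p ranged from 0.024 to 0.582 for Ndufc1 and from 0.0253 to 0.674 for Ndufa3.

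The 7 core subunits of complex I, which carry the flavin and the iron-sulfur clusters, were all higher in CCD at 72 h, with changes of 0.02 to 0.31 and a median of 0.23. Of the 28 accessory subunits 27 were higher, with a median of 0.22 and a range of -0.01 to 0.55. The highest of that range was Ndufb4, at 114, 73.4, 65.3 and 89.0 TPM in sham animals (77.2 TPM for the first without its low-correlation library) and at 110, 110, 125 and 149 TPM in UNx animals. Ndufb4 overlapped between groups with all libraries, at an adjusted p of 0.384, and rose by 0.68 without that library (adjusted p 0.0421). Ndufa13, an accessory subunit also known as GRIM-19, was at 331, 231, 244 and 268 TPM in sham animals (210 TPM for the first without the library) and at 340, 326, 393 and 418 TPM in UNx animals. It differed by 0.46 with all libraries and rose by 0.63 without it (adjusted p 0.032).

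Complex III members were higher in 8 of 9 cases, and none passed the threshold. Cyc1, the cytochrome c1 that hands electrons to cytochrome c, was at 1364, 1135, 1350 and 1295 TPM in CCD of the sham animals at 72 h and at 1498, 1413, 1549 and 1568 TPM in UNx animals. The groups did not overlap, but the difference was small, at 0.23 (SE 0.0927, adjusted p 0.595), and 0.27 without the low-correlation library (adjusted p 0.207). Uqcrfs1, the Rieske iron-sulfur protein, was at 820, 595, 891 and 807 TPM in sham animals and at 903, 890, 1051 and 1045 TPM in UNx animals. Its highest sham animal was just above its lowest UNx animal, and its difference of 0.33 did not pass the threshold (adjusted p 0.596), nor did that of 0.36 without the library (adjusted p 0.25). The small subunit Uqcrq was the complex III gene that was not higher, at -0.02, with 3426, 2222, 3182 and 2224 TPM in sham animals against 2580, 2582, 2823 and 2737 TPM in UNx animals.

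In complex IV the members with the smallest p-values were the small subunits Cox7b and Cox7c. Cox7b was at 871, 576, 656 and 714 TPM in CCD of the sham animals at 72 h, with 583 TPM for the first without its low-correlation library, and at 1065, 893, 1150 and 1290 TPM in UNx animals. The groups did not overlap, and the difference was 0.65 (SE 0.150, adjusted p 0.134) with all libraries and 0.79 without that one (SE 0.124, adjusted p 0.0223). Cox7c was at 280, 194, 261 and 296 TPM in sham animals and at 327, 384, 494 and 570 TPM in UNx animals, a difference of 0.77 (SE 0.189, adjusted p 0.176). Without the library the first sham animal was at 166 TPM and the difference was 0.95 (adjusted p 0.0916). Cox7c thus differed by more than Cox7b, with a larger spread, and passed the threshold in neither case. Cox7a2 and Cox6b1 both stood apart between the groups, with Cox7a2 at 1506, 1132, 1223 and 1294 TPM in sham animals and 1658, 1562, 1780 and 1964 TPM in UNx animals.

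All 17 complex V members were higher, with the small membrane subunits ahead of the catalytic head. The 5 small membrane subunits had a median change of 0.36, and each was under an unadjusted p of 0.05. The 5 genes of the F1 head and central stalk had a median of 0.24. Atp5k, subunit e, which helps ATP synthase dimers to form, was at 740, 548, 543 and 635 TPM in CCD of the sham animals at 72 h, with 493 TPM for the first without its low-correlation library, and at 811, 799, 999 and 1102 TPM in UNx animals. The groups did not overlap, and the difference was 0.59 (SE 0.141, adjusted p 0.153), and 0.73 without that library (SE 0.126, adjusted p 0.031). Atp5j2, subunit f, was at 829, 584, 606 and 652 TPM in sham animals (543 TPM for the first without the library) and at 857, 789, 997 and 1038 TPM in UNx animals. It overlapped between groups with all libraries, at a difference of 0.47 (adjusted p 0.294), and rose by 0.62 without it (adjusted p 0.0317). For the abundant Atp5b the values were 6467, 5395, 7803 and 7183 TPM in sham animals and 7035, 7286, 8759 and 8382 TPM in UNx animals. The difference was 0.24 (adjusted p 0.812), and the groups overlapped.

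**Figure D4:**
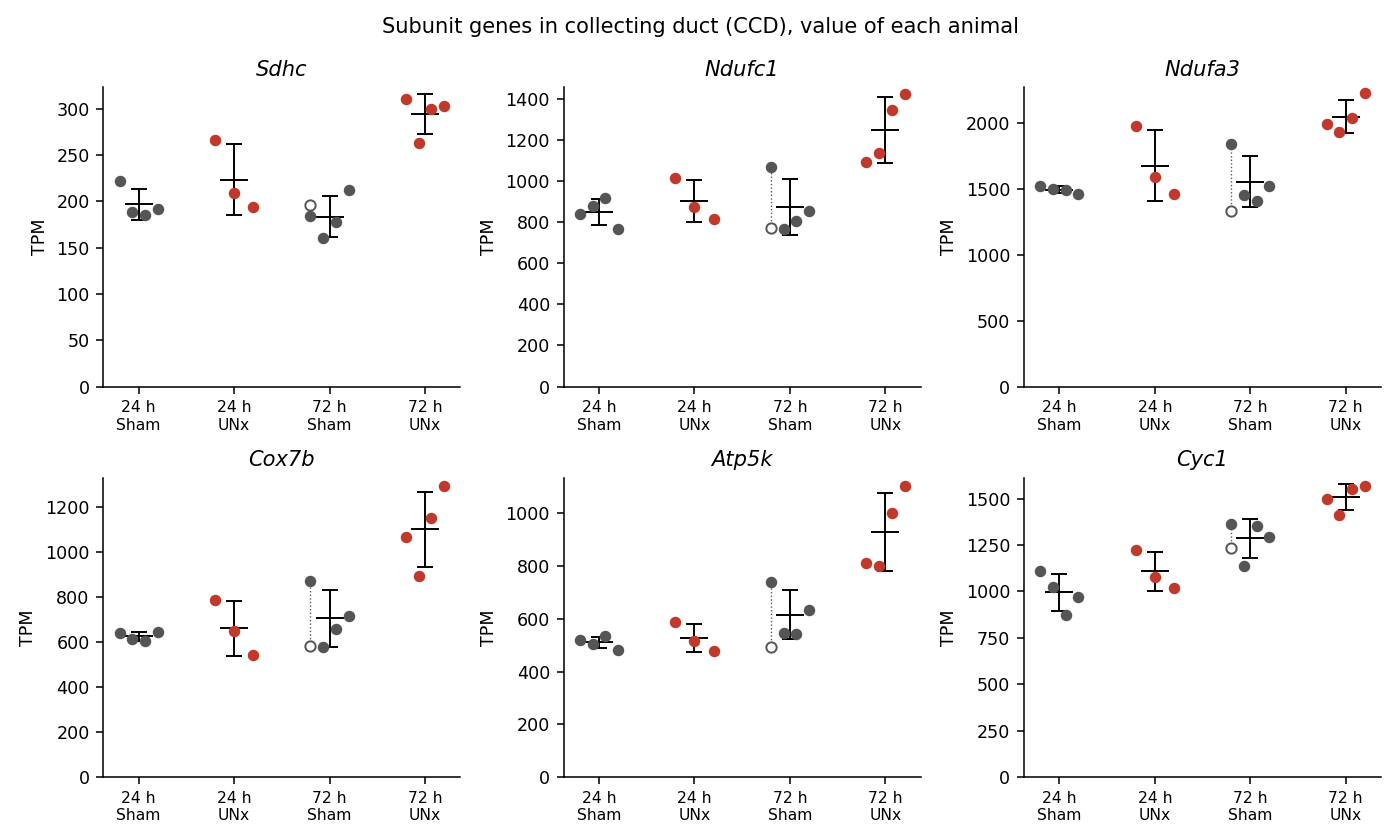
TPM of Sdhc, Ndufc1, Ndufa3, Cox7b, Atp5k and Cyc1 (y axes, linear) in each CCD animal at 24 h and 72 h, sham and UNx, with mean ± SD in black; the open circle is sham animal 1 at 72 h without its low-correlation library. In each panel the 4 UNx animals at 72 h lie above the 4 sham animals, while the groups overlap at 24 h. All the genes drawn are among the members without overlap at 72 h, so this separation follows from their choice. Most members overlapped at 72 h with all libraries.

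Promoters of genes with large differences in CCD are shown for the letters of motifs known from respiratory genes. RefSeq windows (build GRCm38.p6) from 250 bases before to 50 after the start were found for 66 of 81 members, and were searched on both strands for the NRF1 motif (GCGCA, then any base, then GCGC), the ETS (GABP) motif CCGGAAGT, the YY1 motif AAGATGGC and the ERR motif TCAAGGTCA. A match is a description of letters, and neither a binding site nor a cause. NRF1 matched 16 of 66 windows (24.2%, against 4.78% of 27025 windows of all genes), YY1 matched 9 (13.6% against 2.88%), ETS matched 5 (7.58% against 4.0%) and ERR matched 2 (3.03% against 0.407%). At least 1 of the 4 was found in 28 (42.4% against 11.2%). YY1 was found in 7 of 31 windows of complex I and in none of 12 of complex IV. Below, the first 280 bases are printed 5′ to 3′ on the strand of the gene, with matches in capitals. Ndufc1 (chr3:51408926-51409205, minus strand) and Ndufa3 (chr7:3617123-3617402, plus strand) hold the YY1 letters at the same place, from base 273. Atp5k (chr5:108434370-108434649, minus strand) holds 1 NRF1 match and Ndufb4 (chr16:37654339-37654618, minus strand) holds 3. Cox7b (chrX:106015450-106015729, plus strand), among the genes that rose without the low-correlation library, and Cox7a1 (chr7:30183921-30184200, plus strand), the gene with the largest difference toward CCD, hold none, which says only that these letters are not in these windows.
Ndufc1: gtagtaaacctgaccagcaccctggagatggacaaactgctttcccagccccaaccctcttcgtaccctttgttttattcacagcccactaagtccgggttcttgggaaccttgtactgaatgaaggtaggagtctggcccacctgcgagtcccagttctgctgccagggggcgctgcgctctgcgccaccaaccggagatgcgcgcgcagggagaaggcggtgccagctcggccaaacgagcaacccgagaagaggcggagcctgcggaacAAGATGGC
Ndufa3: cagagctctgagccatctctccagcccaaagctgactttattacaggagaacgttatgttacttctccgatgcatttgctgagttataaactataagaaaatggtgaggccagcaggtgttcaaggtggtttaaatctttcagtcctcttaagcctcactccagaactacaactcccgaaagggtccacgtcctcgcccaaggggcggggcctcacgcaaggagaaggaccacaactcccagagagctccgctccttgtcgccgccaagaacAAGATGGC
Atp5k: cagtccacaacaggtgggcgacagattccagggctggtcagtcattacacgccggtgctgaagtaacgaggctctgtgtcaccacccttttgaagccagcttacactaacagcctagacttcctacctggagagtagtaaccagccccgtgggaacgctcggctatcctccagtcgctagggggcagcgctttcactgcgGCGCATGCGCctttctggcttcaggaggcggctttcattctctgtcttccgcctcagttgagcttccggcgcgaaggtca
Ndufb4: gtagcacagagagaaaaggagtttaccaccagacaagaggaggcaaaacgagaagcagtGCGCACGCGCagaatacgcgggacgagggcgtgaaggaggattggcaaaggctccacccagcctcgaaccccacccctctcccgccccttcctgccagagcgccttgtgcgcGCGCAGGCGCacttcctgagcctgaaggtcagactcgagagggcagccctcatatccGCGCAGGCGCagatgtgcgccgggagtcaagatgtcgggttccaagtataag
Cox7b: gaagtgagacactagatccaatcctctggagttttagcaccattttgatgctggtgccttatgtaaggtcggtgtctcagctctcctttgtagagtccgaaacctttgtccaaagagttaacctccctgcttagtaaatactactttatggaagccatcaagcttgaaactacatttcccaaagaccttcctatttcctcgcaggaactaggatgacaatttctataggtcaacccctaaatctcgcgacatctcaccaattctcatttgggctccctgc
Cox7a1: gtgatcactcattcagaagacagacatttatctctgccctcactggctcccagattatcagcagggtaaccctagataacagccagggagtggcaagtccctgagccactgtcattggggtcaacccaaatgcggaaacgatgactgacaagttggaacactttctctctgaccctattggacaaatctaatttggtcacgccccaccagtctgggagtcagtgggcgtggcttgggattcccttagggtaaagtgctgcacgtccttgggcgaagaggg

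In CCD at 72 h the median change was 0.21 for 16 members with an NRF1 match and 0.26 for 50 without one, and 0.25 for members with and without a YY1 match. It was 0.15 for 5 members with an ETS match and 0.25 for 61 without one, and 0.27 for 2 members with an ERR match and 0.25 for 64 without one. These medians use all libraries and are descriptions with no test. Of the 14 members that rose without the low-correlation library 13 had a window, and 5 of those held a match.

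At 24 h after UNx no member in CCD passed the threshold in limma (0 of 80), against 0.987% of all genes, with 3 higher and 1 lower at an unadjusted p under 0.05 (5.55% and 9.97% of all genes). The median change was 0.05 beside -0.04 for all genes, with 58 members higher and 22 lower. Sdhc was at 222, 188, 186 and 192 TPM in CCD of sham animals and at 266, 209 and 194 TPM in UNx animals, a difference of 0.17 (adjusted p 0.530), with overlapping groups. Ndufc1 differed by 0.08, Cox7b by 0.06 and Atp5k by 0.04.

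A pair of members did not overlap between the groups in CCD at 24 h, 1 in each direction (5.55% of all genes were higher and 9.51% lower without overlap). Cox6c2, a row close to the detection limit with a name that marks it as a copy of Cox6c, was listed at 0 in 3 sham animals and at 0.717 TPM in the fourth, and at 4.94, 1.27 and 2.06 TPM in UNx animals. Its difference was 1.59 (SE 0.350, adjusted p 0.0717), a value that depends on the pseudocount at this level, and reads of Cox6c and its copy may be shared. Atp5md, the small membrane subunit known as DAPIT, was at 1219, 1129, 1168 and 1099 TPM in sham animals and at 1040, 1022 and 979 TPM in UNx animals. All UNx animals were lower, by -0.19 (SE 0.0699, adjusted p 0.248). In the other direction Uqcrc1, a core protein of complex III, was at 934, 854, 739 and 844 TPM in sham animals and at 1084, 982 and 933 TPM in UNx animals, a difference of 0.25 (adjusted p 0.256) with groups that overlapped by 1 animal. Cox7a1 differed by 0.32 (adjusted p 0.258) and its share of the Cox7a1 and Cox7a2 sum did not overlap, from 20.2% to 22.6% in sham animals and from 24.0% to 26.6% in UNx animals. In CCD at 72 h this share overlapped, from 22.0% to 32.7% in sham animals and from 28.8% to 31.2% in UNx animals.

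The changes at 72 h and 24 h in CCD were compared in 1 model with 4 groups. None of 80 members passed the threshold for the difference of the effects, as none of all genes did. At an unadjusted p under 0.05 the effect was higher at 72 h for 19 members and lower for none, where 3.52% of all genes were higher and 1.45% lower. The smallest p-values were those of Atp5md, by 0.53 (SE 0.147, adjusted p 0.953), Sdhc, by 0.51 (SE 0.160, adjusted p 0.968), and Atp5k, by 0.55. Atp5md thus combined a lower level at 24 h with 1344, 1507, 1685 and 1896 TPM in UNx animals at 72 h against 1393, 1126, 1275 and 1252 TPM in sham animals. Without the low-correlation library the effect was higher at 72 h for 38 members at an unadjusted p under 0.05 (3.87% of all genes) and lower for none (4.6%), and again none passed the adjusted threshold. So the rise of Sdhc at 72 h was not shown to differ from its change at 24 h.

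In PT-S1 at 72 h the values of the members depended on the 2 low-correlation libraries. With all libraries 61 of 81 members were higher in UNx animals and 20 lower, with a median change of 0.35 beside -0.29 for all genes. None passed the threshold in limma, nor did any of all 11886 genes, and 16 were higher and 1 lower at an unadjusted p under 0.05 (1.33% and 19.1% of all genes). UNx animals lay above all sham animals for 3 members, Cox5b, Uqcrq and Uqcr11 (0.236% of all genes), and below them for none (5.33%). Without the libraries of UNx animals 1 and 2, 44 of 80 members were higher and 36 lower, the median was 0.02 beside -0.02 for all genes, and none passed the threshold (0.00837% of all genes). No member then lay apart between the groups, where 1.54% of all genes were higher and 1.62% lower without overlap. The share of TPM in the 81 genes moved in the same way: it was 9.08% ± 0.59 in sham animals (SD, n = 5), 13.3% ± 4.68 in UNx animals with all libraries and 9.54% ± 0.88 without those 2.

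**Figure D5:**
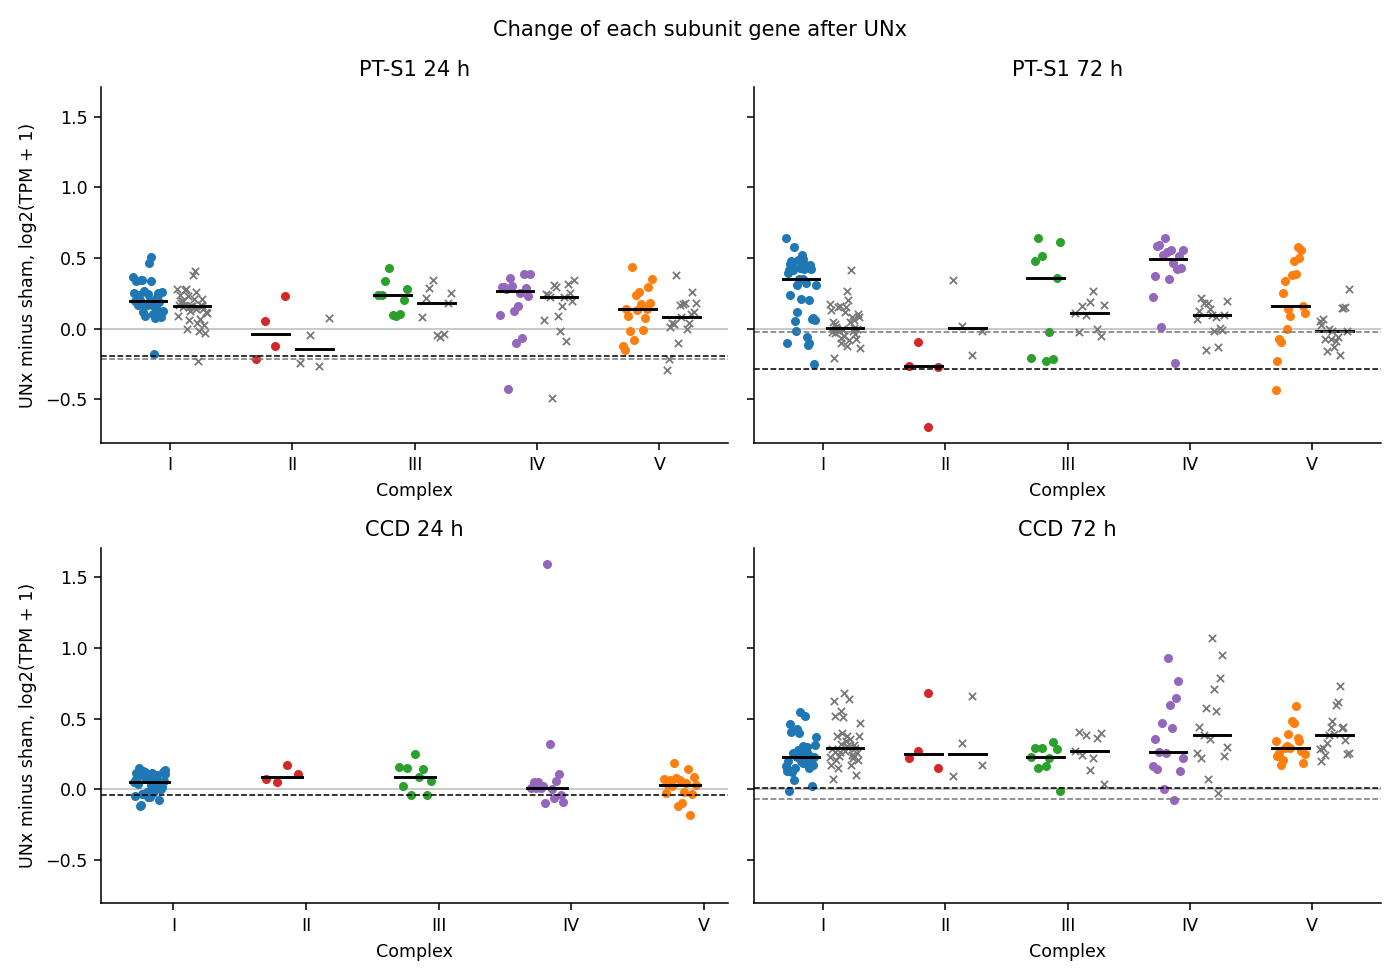
Change of each member between UNx and sham animals (y axis, difference of mean log2(TPM + 1)) by complex in the 4 tables; coloured points use all libraries, grey crosses leave out the low-correlation libraries, black bars are medians of the points and dashed lines are medians of all genes (black with all libraries, grey without). In CCD at 72 h 77 of 80 points are above 0; in PT-S1 at 72 h the points spread from -0.69 to 0.64 and the crosses gather around 0.

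With all libraries the direction in PT-S1 at 72 h followed the kind of subunit. Higher were 26 of 28 accessory subunits of complex I (median 0.41), 5 of 5 small subunits of complex III (0.51), 15 of 16 subunits of complex IV (0.49) and 5 of 5 small membrane subunits of complex V (0.50). None of 4 genes of complex II was higher, none of the 4 core and redox subunits of complex III, 3 of 7 core subunits of complex I and 1 of 5 genes of the F1 head and central stalk. The members are short genes: 80 with a transcript length in GENCODE M21 had a median of 655 bases against 2060 for the other genes. The median change was 0.45 for 49 members under 750 bases, 0.02 for 26 from 750 to 1500 bases and -0.23 for 5 from 1500 to 3000 bases. The other genes of these classes had medians of -0.14, -0.24 and -0.33. These medians by length use all libraries and were not computed without the 2 low-correlation libraries. The part of transcript length in the result was not tested. Without the 2 libraries the median was 0.00 for the accessory subunits of complex I, with 14 of 28 higher, and 0.10 for complex IV.

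Individual genes show what the 2 libraries did. Uqcrq was at 3738, 3845, 3558, 3833 and 3424 TPM in PT-S1 of the sham animals at 72 h and at 8032, 7780, 4032, 4906 and 4565 TPM in UNx animals. The first 2 UNx animals were at 3740 and 3556 TPM without their low-correlation libraries, within the range of the sham animals. The difference was 0.61 (SE 0.197, adjusted p 0.237) with all libraries and 0.17 without them. Ndufa1 was at 2142, 2476, 1899, 2230 and 1962 TPM in sham animals and at 4579, 4298, 2360, 3021 and 2908 TPM in UNx animals. Its difference was 0.64 (SE 0.190, adjusted p 0.237) and 0.17 without the libraries, where UNx animals 1 and 2 were at 2036 and 1909 TPM. UNx animals 4 and 5, which had no such library, were above all sham animals for both genes.

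Other members of the small-subunit kind gave the same picture. Cox5b, a zinc-binding subunit of complex IV, was at 2048, 2043, 1821, 2117 and 1741 TPM in sham animals and at 3835, 3957, 2164, 2616 and 2457 TPM in UNx animals, a difference of 0.58 (SE 0.185) that became 0.21. Ndufa4 differed by 0.56 and by 0.20 without the libraries, Uqcr11 by 0.64 and 0.16, and Atp5mpl, a small proteolipid of ATP synthase, by 0.55 and 0.15. Ndufb8 was at 1815, 2079, 1471, 2033 and 1842 TPM in sham animals and at 3024, 2971, 2034, 2640 and 2349 TPM in UNx animals, a difference of 0.49 (adjusted p 0.237) and 0.27 without the libraries. None of these passed the threshold in either setting. With weights given to the animals, Ndufa1 (adjusted p 0.0326), Ndufa4 (0.0367) and Ndufb8 (0.0483) did, with changes of 0.40, 0.35 and 0.34. Over all alternatives the adjusted p reached 0.555 for Ndufa1, 0.484 for Ndufa4 and 0.490 for Ndufb8.

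On the other side were the genes of complex II, core subunits and the F1 head. Sdhc was at 326, 294, 323, 369 and 358 TPM in PT-S1 of the sham animals at 72 h and at 129, 125, 261, 305 and 284 TPM in UNx animals. Without the low-correlation libraries UNx animals 1 and 2 were at 274 and 346 TPM, and the difference moved from -0.69 (SE 0.265, adjusted p 0.237) to -0.18 (adjusted p 0.347). Sdha was at 615, 849, 509, 567 and 730 TPM in sham animals and at 267, 291, 829, 881 and 773 TPM in UNx animals. Its difference turned from -0.26 to 0.34 (adjusted p 0.227), with UNx animals 1 and 2 at 731 and 872 TPM. Ndufs1, the largest core subunit of complex I, was at 195, 261, 162, 176 and 246 TPM in sham animals and at 110, 141, 267, 276 and 251 TPM in UNx animals, a difference of -0.06 that turned to 0.41 without the libraries (adjusted p 0.209). Atp5a1, the alpha subunit of F1, differed by -0.43 and by 0.05. Without the libraries 4 members were higher at an unadjusted p under 0.05, Ndufs1, Sdha, Atp5pb (subunit b of the peripheral stalk, 0.28) and Uqcrc2 (0.27), where 9.6% of all genes were, and no member was lower (8.1% of all genes).

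In PT-S1 at 24 h most members were somewhat higher in UNx animals, without passing the threshold. Of 81 members 70 were higher and 11 lower, with a median change of 0.19 beside -0.19 for all genes. None passed the threshold in limma, nor did any of all 11874 genes, and 4 were higher and none lower at an unadjusted p under 0.05 (2.59% and 15.2% of all genes). UNx animals lay above all sham animals for 8 members (2.79% of all genes) and below them for none (12.1%): the complex I accessory subunits Ndufb8, Ndufb6, Ndufa8, Ndufa12, Ndufa7 and Ndufb9, with Uqcrb and Cox5a. Without the low-correlation libraries of sham animals 1 and 3, 66 members were higher and 15 lower, with a median of 0.16, and none passed the threshold (0.00847% of all genes). At an unadjusted p under 0.05 4 were then higher and none lower (1.68% and 23% of all genes), and 5 were higher and none lower without overlap (1.65% and 21.5%).

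Ndufb8 had the lowest p of complex I in this table. Ndufb8 was at 1183, 1786 and 1694 TPM in PT-S1 of the sham animals at 24 h and at 2089, 2197, 2037 and 2367 TPM in UNx animals, a difference of 0.50 (SE 0.182, adjusted p 0.254). Ndufb6, another accessory subunit of the membrane arm, was at 494, 720 and 686 TPM in sham animals and at 863, 811, 852 and 922 TPM in UNx animals. Both genes were lowest in sham animal 1, the animal with a low-correlation library that gave 3.88% of its TPM to the 81 genes. Uqcrb, a small subunit of complex III, was at 960, 1415 and 1328 TPM in sham animals and at 1605, 1637, 1473 and 1857 TPM in UNx animals, a difference of 0.43 (adjusted p 0.271). Atp5g1 was at 950, 1406 and 1129 TPM in sham animals and at 1525, 1512, 1348 and 1853 TPM in UNx animals, also 0.43 (adjusted p 0.273). Its lowest UNx animal was below its highest sham animal. In complex II Sdha differed by -0.21, Sdhc by -0.13 (adjusted p 0.716) and Sdhd by 0.23. These changes are with all libraries. Without the low-correlation libraries the largest change was 0.41 among complex I accessory subunits, 0.34 among small complex III subunits and 0.38 in the c ring. The 2 membrane anchors of complex II then ran from -0.26 to 0.08, and its flavin and iron-sulfur subunits from -0.24 to -0.04.

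The differences of the UNx effect between times in PT-S1, and between segments, gave no member past the threshold with all libraries. For 72 h against 24 h in PT-S1 none of 81 passed (0% of all genes), none was higher or lower at an unadjusted p under 0.05 (1.37% and 1.96% of all genes), and the smallest p-values were those of Sdhd (-0.50), Sdhc (-0.57) and Ndufa8 (-0.29, adjusted p 0.998). For PT-S1 against CCD at 24 h none of 80 passed (0.137% of all genes), and at an unadjusted p under 0.05 the effect was higher in PT-S1 for 3 and lower for 1 (3.44% and 12% of all genes). Cox6c2 at -1.69 (adjusted p 0.194), Uqcrb at 0.47 (adjusted p 0.260) and Ndufb6 at 0.43 (adjusted p 0.277) came first. For PT-S1 against CCD at 72 h none of 80 passed (0% of all genes), with 1 higher and 3 lower at an unadjusted p under 0.05 (0.607% and 8.73% of all genes). First came Sdhc at -1.38 (SE 0.323, adjusted p 0.479), Uqcrq at 0.63 (adjusted p 0.495) and Atp5a1 at -0.77 (adjusted p 0.495). Without the low-correlation libraries 2 of 79 members passed in this last comparison (0.0813% of all genes). Sdhc (SE 0.142) and Ndufa13 (SE 0.146) both had an effect lower by 0.84 in PT-S1 than in CCD, at an adjusted p of 0.0403 each. At an unadjusted p under 0.05 the effect was then lower in PT-S1 for 37 members and higher for none, where 5.86% of all genes were lower and 9.08% higher. In PT-S1 for 72 h against 24 h none of 80 passed without these libraries (1.63% of all genes), with 2 higher and 2 lower at an unadjusted p under 0.05 (20.8% and 1.79%). For PT-S1 against CCD at 24 h none of 80 passed (1.64% of all genes), with 6 higher and 1 lower (2.82% and 18.1%).

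Genes that work with the chain were read from lists. Among 15 genes of cytochrome c, the electron transfer flavoprotein, coenzyme Q synthesis and Ndufab1, a complex I subunit whose name lies outside the pattern used, 14 were higher in CCD at 72 h and 1 passed the threshold. This was Cycs, cytochrome c, which carries electrons from complex III to complex IV. Cycs was at 186, 125, 116 and 152 TPM in CCD of the sham animals at 72 h, with 105 TPM for the first without its low-correlation library, and at 305, 236, 309 and 373 TPM in UNx animals. The groups did not overlap, and Cycs rose by 1.08 on the log2 scale (SE 0.175, limma adjusted p 0.0275), more than any of the 80 members. Without that library it rose by 1.28 (SE 0.152, adjusted p 0.00662), and Ndufab1, which differed by 0.44 with all libraries (adjusted p 0.178), also rose, by 0.53 (adjusted p 0.0339). At 24 h in CCD Cycs differed by 0.29 (adjusted p 0.534), with 148, 153, 117 and 158 TPM in sham animals and 251, 159 and 133 TPM in UNx animals. In PT-S1 Cycs differed by 0.33 at 24 h and 0.34 at 72 h with all libraries, and by 0.23 and -0.12 without the low-correlation libraries, so the direction at 72 h turned. None of these passed the threshold.

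Of assembly factors in CCD at 72 h, 14 of 17 for complex I were higher, 8 of 10 for complexes II and III, 14 of 23 for complex IV and 2 of 5 for ATP synthase, with none past the threshold. Without the low-correlation library these counts were 15, 6, 14 and 2, and 1 gene of the complex IV list passed. This was Higd1a, which differed by 0.34 with all libraries (adjusted p 0.247) and rose by 0.46 without that one (adjusted p 0.0482). Tmem186, a factor of complex I, differed by 0.42 (adjusted p 0.643) and by 0.30. All 6 nucleotide and phosphate carriers were higher, led by the ADP/ATP carrier Slc25a4 at 0.41 (SE 0.0919, adjusted p 0.113), and 0.44 without the library (adjusted p 0.056). Enzymes of the tricarboxylic acid cycle were higher in 13 of 14 cases (median 0.16) and genes of mitochondrial import in 10 of 16 (median 0.05), none past the threshold; without the library these were 13 of 14 (0.14) and 12 of 16 (0.06). Regulators of mitochondrial biogenesis were higher in 9 of 14 cases, with a median of 0.04, and Ppargc1a, which encodes the coactivator PGC-1alpha, differed by -0.21 (adjusted p 0.713). Without the low-correlation library the regulators turned, with 4 of 14 higher, a median of -0.12 and 3 lower at an unadjusted p under 0.05 (8.64% of all genes), and Ppargc1a differed by -0.36 (adjusted p 0.215). In PT-S1 at 72 h all 14 regulators and all 14 cycle enzymes were lower, with medians of -0.40 and -0.31 beside -0.29 for all genes. Without the low-correlation libraries the medians were -0.02 and 0.12.

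The 7 mitochondrially encoded subunit genes at 1 TPM or more were all higher in CCD at 72 h (median 0.13, and 0.29 without the low-correlation library) and in PT-S1 at 24 h (0.35), and all lower in CCD at 24 h (-0.31) and PT-S1 at 72 h (-0.45), none past the threshold, while the other 6 of 13 were listed at 0 in every animal. Genes of cytosolic ribosomal proteins in CCD at 72 h resembled the members in their counts: 72 of 76 were higher, 37 at an unadjusted p under 0.05, with a median of 0.27 and none past the adjusted threshold, and without the low-correlation library 75 were higher, 47 at an unadjusted p under 0.05, with a median of 0.39.

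Markers of tubule cell types in CCD at 72 h were read beside these results. The 4 thick ascending limb markers tested were lower (median -0.37), with summed levels of 846 to 1383 TPM in sham animals and 761 to 1255 TPM in UNx animals and none at 0. Of 6 intercalated-cell markers 5 were higher (median 0.25), from 4324 to 6062 TPM in sham animals and from 5254 to 6373 TPM in UNx animals, with none at 0. Principal-cell markers were higher in 3 of 6 cases (median 0.00), from 18746 to 38569 TPM and from 18900 to 26909 TPM, with none at 0. Without the low-correlation library the medians were -0.18 for thick ascending limb (4 of 4 lower), 0.15 for intercalated cells (4 of 6 higher) and -0.08 for principal cells (6 of 6 lower). None of these markers passed the threshold in either setting. The 4 distal convoluted tubule markers summed to 265 to 492 TPM in sham animals and 374 to 548 TPM in UNx animals, with all libraries. In CCD at 24 h their sums were 278 to 404 TPM in sham animals and 405 to 465 TPM in UNx animals, without overlap. In PT-S1 at 24 h 5 of 6 S1 and S2 markers were lower (median -0.43), from 10575 to 14384 TPM in sham animals and from 8002 to 11516 TPM in UNx animals, and 4 of 4 S3 markers were higher (median 1.14), from 2.87 to 29.4 TPM and from 2.34 to 168 TPM, with none of either list at 0. Without the low-correlation libraries 5 of 6 S1 and S2 markers were lower (median -0.47), 3 of them at an unadjusted p under 0.05 (23% of all genes), and 3 of 4 S3 markers were higher (median 0.67). In PT-S1 at 72 h 5 of 6 S1 and S2 markers were lower with all libraries (median -0.17), from 6464 to 13717 TPM in sham animals and from 5312 to 15262 TPM in UNx animals, and 5 of 6 were higher without the low-correlation libraries (median 0.38). The part of cell composition in the values of the members was not tested.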

How the data were processed

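PolyA RNA of microdissected tubules was measured in 69 libraries. Per the submitters' processing notes, RSEM 1.3.3 and genome build GRCm39 were used. The authors deposited 4 tables of TPM (transcript abundance scaled to transcript length and to the same sum in every library), 1 per segment and time, listing 55487 genes at 24 h and 53700 at 72 h. How reads shared between genes and pseudogenes were divided is not given in the sources used here, so values of genes with close copies are uncertain. Of 69 columns 47 matched 1 sample by name, and 22 matched a group and an animal but not a library number. No 2 libraries were identical.

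The members and the gene lists were chosen with earlier results of these data known. TPM values were taken as log2(TPM + 1), averaged over the libraries of an animal and fitted with limma 3.58.1 (R 4.3.3, empirical Bayes with an intensity trend) over genes with a mean of at least 1 TPM. P-values were adjusted by Benjamini-Hochberg over all genes, two-sided, and printed animal values are these log2 means returned to TPM. Differences of effects were contrasts in models with 4 groups. Changes are on the log2(TPM + 1) scale, which understates those of low genes. Shares and counts were computed in Python 3.11.15 with pandas 2.3.3. The script was tested on simulated data.

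Named genes were those past the threshold or else, per table, the 2 of each complex with the smallest p, the 2 of each complex with the highest sham level, the isoform families, the 3 with the smallest p for each difference of effects, and of each other list the genes past the threshold or else the 1 with the smallest p, of which some are printed. Other members were named after their values were seen: those that did not overlap between groups, that passed the threshold without the low-correlation libraries, or that show what these libraries changed (Ndufs1, Atp5b, Atp5pb, Uqcrc2, Ndufb4 and Ndufa13 among them). Alternatives covered scaling, pseudocount, filter, the unit of replication, weights, low-correlation libraries, a block for the animal number and each animal left out.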

Additional observations from a re-analysis of the deposited data

Results flagged for a closer look

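In groups of 4 or 5 animals, 66 sets of values were checked for an animal far from the others. The sets were the named genes and the share of TPM in the members. The measure was the gap to the nearest neighbour as a share of the whole range. Chance alone passes the limit in about 1 in 20 groups, and 2 did. Sdha in PT-S1 at 24 h had a UNx animal 3 far below the other 3, at 9.23 on the log2(TPM + 1) scale with the nearest at 9.52, a gap of 0.862 of the range. Cox6c2 in CCD at 24 h had 1 sham animal, animal 4, at 0.78 on that scale while the other 3 were listed at 0, a gap of 1.0.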

How the results depend on the processing

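Under the alternatives 312 values of counts and medians stayed close to those reported and 21 moved. Close means the same number for a count, and for a median a shift of less than the SD between animals. That SD was widest in PT-S1 at 72 h, at 0.22, and 0.48 relative to all genes, so sizeable shifts of a median count as close. The reported counts were 0 except in CCD at 72 h. Of the values of single genes 766 kept direction and side of the threshold, 13 passed it newly, 8 lost it and 2 turned. Scaling mattered in PT-S1, where median-ratio scaling brought the median of all genes from -0.19 to 0.01 at 24 h and from -0.29 to 0.02 at 72 h. The median change of the members was then 0.43 and 0.74, and Sdha at 24 h (0.0251) and Sdhd at 72 h (0.12) turned positive. In PT-S1 at 72 h the median was 0.12 after quantile normalization, 0.0771 with weights for the animals and 0.0228 without the low-correlation libraries, and relative to all genes it was 0.15, 0.14 and 0.0442. Members past the threshold there numbered 3 with weights. In CCD at 24 h 1 member (Uqcrc1, adjusted p 0.0489, over all alternatives up to 0.584) passed when every library counted as a replicate. In CCD at 72 h the count was 0 when any gene above 0 TPM in 3 or more animals was tested (Sdhc adjusted p 0.0821), 7 with weights and 14 without the low-correlation library. The difference of effects between segments at 72 h gave 2 without the low-correlation libraries. The cause was not tested. Leaving out each animal in turn gave 0 to 1 members past the threshold in CCD at 72 h and 0 in the other tables and in all 4 differences of effects. The medians then ranged from 0.04 to 0.26 in PT-S1 at 24 h, from 0.22 to 0.47 in PT-S1 at 72 h, from -0.01 to 0.09 in CCD at 24 h and from 0.18 to 0.32 in CCD at 72 h. Relative to all genes these ranges were 0.15 to 0.50, 0.41 to 0.82, -0.00 to 0.14 and 0.16 to 0.37.

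Animal numbers are shared between groups, and the deviations of same-numbered animals correlated from -0.366 to 0.328 over the tables, so the numbers were not taken to pair the animals. With the number as a replicate block the medians were 0.15, 0.35, 0.03 and 0.25 in the order of the tables above, and no member passed the threshold in any of the 4, with Sdhc in CCD at 72 h at an adjusted p of 0.0738.

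The precision is limited by 3 to 5 animals a group and by TPM, which carry no depth. Whether 1 library of an animal is more reliable than another could not be judged from counts. The labels name no sequencing batch, so no comparison was made within batches.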
